A study of Rattus norvegicus with 6 samples.

Results

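The accessible sites (ACS) of *Mrs2* and of 8 other magnesium transporter genes were compared between the islets of adult and newborn rats. An ACS is a stretch of open chromatin that ATAC-seq marks by the integration of sequencing adapters by the Tn5 transposase. The members were every ACS listed under the symbol *Mrs2*, *Trpm6*, *Trpm7*, *Cnnm1*, *Cnnm2*, *Cnnm3*, *Cnnm4*, *Slc41a1* or *Slc41a2*, its nearest gene, which gave 36 of 101941 entries. Of these, 5 were listed with *Mrs2* and 31 with the others, namely 6 with *Cnnm1*, 8 with *Cnnm2*, 3 with *Cnnm3*, 2 with *Cnnm4*, 1 with *Slc41a1* and 11 with *Slc41a2*. *Trpm6* and *Trpm7* had 0 each. *Mrs2* was chosen by the adult against P10 contrast itself, because its site near the 3′ end of the gene stood out in it. The *Mrs2* values are therefore given as a description, with no test, whereas the other genes were named by function and carry adjusted p-values from the fit over all ACS.

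The Adult group held 3 libraries, each from the islets of 1 adult male Sprague-Dawley rat. The P10 group held 3 libraries from pups at postnatal day 10, of both sexes, each from the pooled islets of pups of 1 litter. All 6 libraries came from whole dissociated islets, without a sort for one cell type. Islet isolation differed too, with collagenase injected into the pancreatic duct in adults and pooled pancreases shaken by hand in collagenase at P10. Age, sex, isolation and single rats against pooled litters changed together and cannot be told apart. In such bulk material, fewer cells of a type and less accessibility per cell cannot be told apart either.

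Magnesium is the main divalent cation inside cells, where it is bound to ATP and serves as a cofactor of kinases and polymerases. MRS2 is the channel that carries magnesium across the inner mitochondrial membrane into the matrix. TRPM6 and TRPM7 are channels of the cell surface fused to a kinase, SLC41A1 is a sodium-magnesium exchanger, SLC41A2 is a related carrier, and the CNNM proteins are membrane proteins linked to magnesium export. In pancreatic β-cells, magnesium nucleotides take part in the control of the potassium channels that couple metabolism to insulin release.

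Promoter sequences are shown for *Mrs2*, *Cnnm2*, *Cnnm3* and *Slc41a2*, and not for the other genes that have one listed. They are the 250 bases before the start, read 5′ to 3′ on the gene strand, from RefSeq on the GRCr8 build, which differs from the Rn5 build of the ACS. Capitals mark matches on either strand to 8 short motifs. The motifs were the GC box GGGCGG, the CCAAT box CCAAT, the E-box CACGTG, the cyclic AMP response element TGACGTCA, the ETS core CCGGAAG, the NRF1 core GCGCATGCG, AP-1 TGACTCA and the YY1 core ATGGCGGC. *Mrs2* (chr17:40491758-40492007, plus strand), *Cnnm2* (chr1:255584902-255585151, plus strand) and *Cnnm3* (chr9:46251015-46251264, plus strand) have an ACS over the start, and *Slc41a2* (chr7:22271467-22271716, plus strand) has none.
Mrs2: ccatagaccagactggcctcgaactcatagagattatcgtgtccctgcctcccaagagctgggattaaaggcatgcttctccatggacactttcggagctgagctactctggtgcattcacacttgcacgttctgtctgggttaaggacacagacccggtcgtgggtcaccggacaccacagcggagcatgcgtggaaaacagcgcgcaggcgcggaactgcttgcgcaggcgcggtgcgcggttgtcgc
Cnnm2: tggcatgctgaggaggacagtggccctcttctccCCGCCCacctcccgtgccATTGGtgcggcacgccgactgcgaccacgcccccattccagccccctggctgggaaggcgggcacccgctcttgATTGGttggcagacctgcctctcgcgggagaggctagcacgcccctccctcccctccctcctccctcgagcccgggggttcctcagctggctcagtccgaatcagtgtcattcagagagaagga
Cnnm3: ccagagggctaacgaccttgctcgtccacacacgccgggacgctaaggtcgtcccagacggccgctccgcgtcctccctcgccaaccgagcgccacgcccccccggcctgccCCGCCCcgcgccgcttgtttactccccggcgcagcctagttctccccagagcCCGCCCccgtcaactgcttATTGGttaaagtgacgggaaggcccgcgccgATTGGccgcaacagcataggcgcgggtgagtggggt
Slc41a2: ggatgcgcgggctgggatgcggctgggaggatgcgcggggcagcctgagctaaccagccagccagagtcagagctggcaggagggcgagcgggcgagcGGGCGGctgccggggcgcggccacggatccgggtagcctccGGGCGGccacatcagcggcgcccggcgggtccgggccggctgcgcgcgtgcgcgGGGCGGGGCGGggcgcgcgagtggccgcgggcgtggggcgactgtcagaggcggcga

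The *Mrs2* stretch is 58.8% G and C with 19 CpG pairs and holds none of the 8 motifs as spelled, so that it has no capitals. *Cnnm2*, at 67.2% G and C, has 1 GC box and 2 CCAAT boxes, and *Cnnm3*, at 69.6%, has 2 of each. The *Slc41a2* stretch is 1 of 2 promoters listed for the gene. It is 80.0% G and C with 39 CpG pairs and 4 GC boxes, of which a pair overlaps and forms 1 run of capitals. The other *Slc41a2* promoter, not shown, is 50.8% G and C with 6 CpG pairs and holds none of the 8 motifs. Over 33469 rat promoters of this length, the median was 51.2% G and C and 5 CpG pairs. The GC box was found in 30.5% of them, the CCAAT box in 34.0%, the ETS core in 7.27%, the E-box in 5.59%, AP-1 in 4.05%, the cyclic AMP response element in 1.59%, the NRF1 core in 1.35% and the YY1 core in 1.15%. Promoters were listed for 7 of the 9 genes. *Cnnm4* and *Slc41a1* had no entry. These matches are descriptions of letters in a window, not of bound sites.

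The libraries held between 7916919 and 11903909 Tn5 integrations in ACS for Adult and between 13491534 and 21168463 for P10, a median of 36 to 53 and of 63 to 96 per ACS. Values below are raw integrations, or CPM, which are integrations scaled to a common library size by the trimmed mean of M values. Log2 fold changes are Adult over P10 from the quasi-likelihood test of edgeR, so that positive values mean more integrations in adults. An ACS was called Up or Down at a p-value under 0.05 and a false discovery rate under 0.2, the study's limits. Over all 101603 distinct ACS, 12.3% were called Up and 6.63% Down. This split varied with the scaling. It was 12504 Up and 6738 Down as reported, and 10447 Up and 10732 Down when column sums served as library sizes. With median-of-ratios size factors it was 12190 Up and 7164 Down, and with cyclic loess 11068 Up and 9101 Down. All 3 Adult values exceeded all 3 P10 values at 13.8% of ACS, and fell short of them at 10.9%.

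*Mrs2* lies on the plus strand of chromosome 17 of Rn5, from 43932173 to 43950097. Accessibility at its 3′ end was several times higher in adults, while the other 4 *Mrs2* ACS differed little between the ages. The 3′ end ACS spans 380 bp (chr17:43949035-43949414), lies inside the gene and ends 683 bp before the gene end. It took 609, 451 and 350 integrations in the Adult libraries and 143, 96 and 158 in the P10 libraries, although the P10 libraries were deeper. In CPM these were 55.0, 43.9 and 45.1 for Adult and 6.65, 6.85 and 8.35 for P10. All 3 Adult libraries were far above all 3 P10 libraries, and the lowest adult value was several times the highest P10 value. The means were 48.0 ± 6.10 and 7.28 ± 0.93 CPM (SD, n = 3 each), a log2 fold change of 2.72 with a standard error (SE) of 0.19. The estimate stayed between 2.61 and 2.82 when any 1 library was left out. Of all ACS it ranked 1 by p-value, and 15 ACS had a larger log2 fold change. These are the values that chose the site.

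The ACS over the *Mrs2* start (chr17:43931883-43932891) was the other strong site of the gene. It took 622, 432 and 403 integrations in Adult and 817, 568 and 827 in P10. The corresponding levels were 56.2, 42.1 and 51.9 CPM in Adult and 38.0, 40.5 and 43.7 CPM in P10. The lowest adult library lay within the P10 range, so the groups overlapped. The means of 50.1 ± 7.25 and 40.7 ± 2.88 CPM gave a log2 fold change of 0.30 with a standard error of 0.16. Per kilobase of ACS, the level at the 3′ end was 126 ± 16.1 CPM against 49.6 ± 7.19 at the start in adults. In pups the order was the opposite, with 19.2 ± 2.45 CPM per kilobase at the 3′ end and 40.4 ± 2.85 at the start.

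The 3 weaker *Mrs2* ACS overlapped between the ages. The ACS 4288 bp past the gene end (chr17:43954385-43954882) took 155, 78 and 78 integrations in Adult and 209, 135 and 220 in P10, with a log2 fold change of 0.03 and a standard error of 0.24. It is the nearest ACS to the 3′ end site, and its means of 10.6 ± 3.23 and 10.3 ± 1.13 CPM were close. The ACS that begins 10156 bp before the start (chr17:43922017-43922424) took 29, 41 and 16 integrations in Adult and 34, 34 and 70 in P10. Its log2 fold change was 0.19 with a standard error of 0.37. The ACS that begins 14640 bp before the start (chr17:43917533-43917744) took 3, 10 and 7 integrations in Adult and 20, 9 and 13 in P10. Its log2 fold change of -0.13 was smaller than its standard error of 0.51, so no difference was detectable at this depth.

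**Figure D1:**
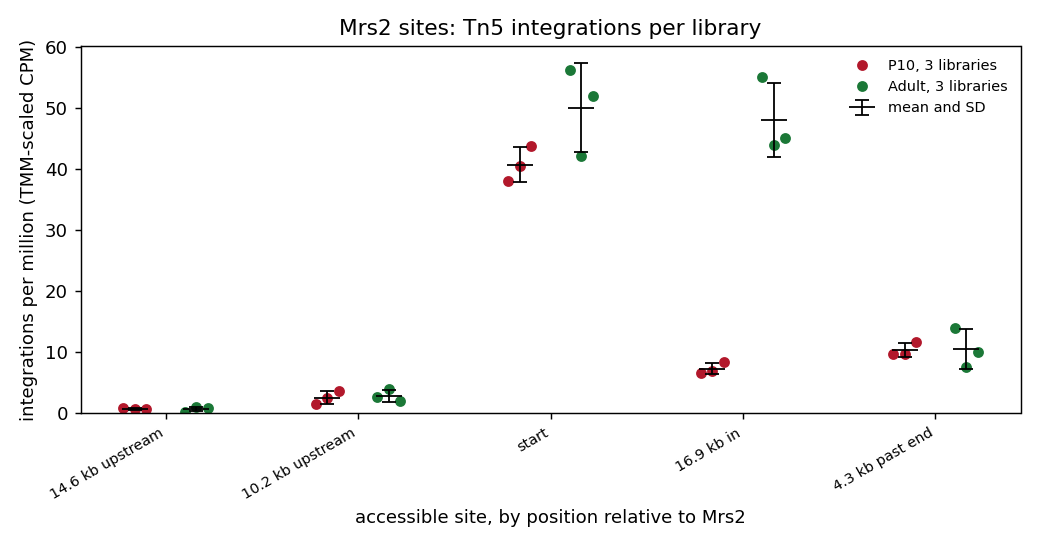
Tn5 integrations in CPM (vertical axis) at the 5 *Mrs2* ACS, ordered along the gene (horizontal axis, distances in kilobases from the gene start to the first base of the ACS, or past the gene end). Points are libraries (3 P10 in red, 3 Adult in green) and bars are mean and SD. The groups are separate at the 3′ end ACS inside the gene, at 48.0 against 7.28 CPM, and overlap at the other 4.

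The division of integrations among the 5 *Mrs2* ACS does not depend on library scaling. The 3′ end ACS held 42.9%, 44.6% and 41.0% of the *Mrs2* integrations in the Adult libraries and 11.7%, 11.4% and 12.3% in the P10 libraries. The start ACS held 44.6% ± 2.33 (SD, n = 3) in Adult and 66.2% ± 1.72 in P10, and the ACS past the gene end 9.26% ± 1.62 and 16.7% ± 0.61. In adults the 3′ end ACS thus took about as many integrations as the start, and in pups far fewer. The ratio of 3′ end to start was 0.979, 1.04 and 0.868 in Adult and 0.175, 0.169 and 0.191 in P10. Shares of one gene sum to 100%, so a larger share at the 3′ end lowers the others. These shares and ratios use the counts that chose the site, and are a description of it rather than separate evidence.

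**Figure D2:**
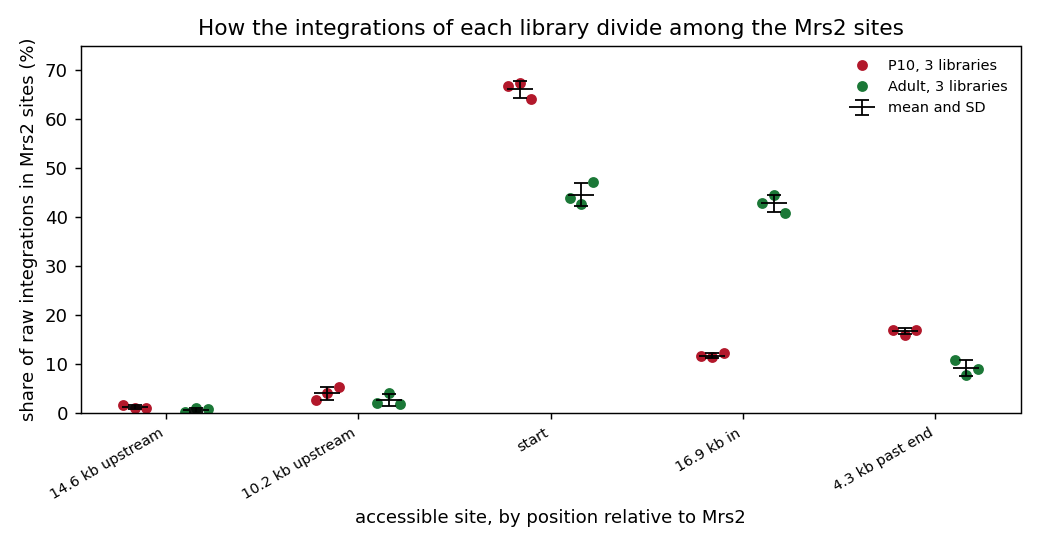
Percent of the raw integrations of each library in *Mrs2* ACS (vertical axis) that fell in each of the 5 ACS, ordered along the gene (horizontal axis). Points are libraries (3 P10 in red, 3 Adult in green) and bars are mean and SD. The 3′ end ACS rises from 11.8% in P10 to 42.8% in Adult while the start falls from 66.2% to 44.6%.

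Markers of the cell types an islet holds were read beside this result, as summed CPM over the ACS of each list. The sums were 848 to 991 in Adult and 808 to 1091 in P10 for 6 of 7 β-cell genes, and 159 to 198 against 178 to 192 for 3 of 3 δ-cell genes. The adult sums were higher without overlap for the α-cell list (5 of 5 genes with ACS), at 615 to 721 against 522 to 605. The same held for the duct list (4 of 5), at 205 to 246 against 173 to 195, and for the endothelial list (5 of 5), at 390 to 472 against 360 to 366. The genes of a list did not move alike, and their calls stand beside 12.3% Up and 6.63% Down over all ACS. Of the β-cell ACS, *Ins1* had 2 Up and 9 Down of 28, with a median log2 fold change of -0.46. *Slc2a2* had 6 Up of 21, *Nkx6-1* 3 Up of 20 and *Ucn3* 3 Up of 8, with 0 Down each. *Ins2* had 0 Up and 1 Down of 4, and *Iapp* 0 and 0 of 2. The δ-cell list had 1 Up and 5 Down of 13 ACS and a median of -0.44, although its sums overlapped between the ages. Of the endothelial ACS, *Cdh5* had 6 Up of 28 and *Kdr* 3 Up of 11, with 0 Down each. *Pecam1* had 0 Up and 1 Down of 7, *Emcn* 0 Up and 1 Down of 5, and *Tek* 0 and 0 of 5. The median log2 fold changes of *Pecam1*, *Tek* and *Emcn* were -0.06, -0.28 and -0.15. In the α-cell list, *Irx2* had 6 Up and 1 Down of 25 and *Gcg* 0 Up and 1 Down of 6. Their medians were 0.23 and -0.21. In the duct list, *Cftr* had 2 Up and 1 Down of 9 and *Spp1* 0 Up and 1 Down of 6. Their medians were 0.43 and -0.21. The sums for 7 of 8 acinar genes were 374 to 404 and 357 to 378, for 4 of 5 mesenchymal genes 173 to 222 and 182 to 190, and for 3 of 5 immune genes 22.4 to 29.9 and 25.1 to 33.7. The defining genes *G6pc2*, *Cela1*, *Krt7*, *Acta2*, *Cd68* and *Lyz2* had no ACS. The part of cell composition in the *Mrs2* values was not tested.

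Within 250 kb of the 3′ end ACS on either side, 25 ACS belonged to other genes. Of these, 4 were called Up, 1 Down and 20 neither, beside 12.3% Up and 6.63% Down over all ACS. Their log2 fold changes ran from -1.07 to 1.27, with a median of -0.01. The 3′ end ACS was chosen for its value of 2.72, so that its height above these neighbours is not a result. The nearest neighbouring gene start on the far side, of *Aldh5a1*, an enzyme of γ-aminobutyrate breakdown, lay 51864 bp away. It had 47.7 ± 6.27 CPM in Adult and 41.6 ± 4.10 in P10, a log2 fold change of 0.20 with an adjusted p of 0.555. On the other side, the *Dcdc2* start had 15.2 ± 2.91 and 19.2 ± 2.45 CPM, a log2 fold change of -0.33 with an adjusted p of 0.395. Both starts overlapped between the ages. The closest called ACS was inside *Dcdc2* (chr17:43875321-43875587), at 11.7 ± 5.25 against 4.98 ± 0.52 CPM, a log2 fold change of 1.23 (adjusted p 0.00496). The start of *Gmnn*, an inhibitor of DNA replication licensing, was also Up, at 75.7 ± 11.7 against 52.2 ± 5.06 CPM, a log2 fold change of 0.54 (adjusted p 0.0291).

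**Figure D3:**
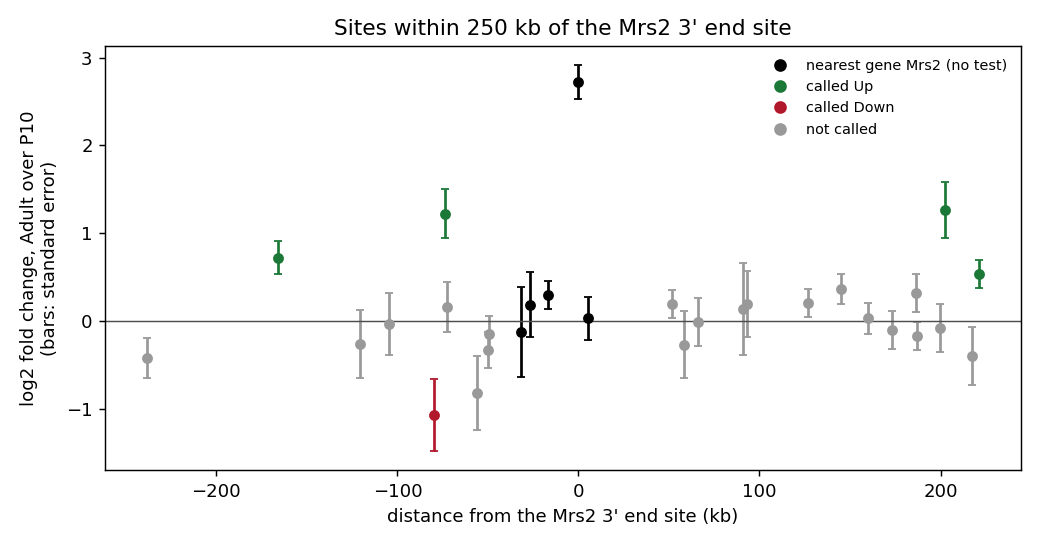
Log2 fold change of Adult over P10 (vertical axis, bars are standard errors) for the 30 ACS within 250 kb of the *Mrs2* 3′ end ACS, by distance from it in kilobases (horizontal axis). Black points are *Mrs2* ACS and carry no test, and the other 25 are colored by call. The 3′ end ACS is at 2.72, the value that chose it, and the highest of the other genes' ACS is at 1.27.

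The 5 ACS whose levels over the 6 libraries were most like those of the *Mrs2* 3′ end ACS lay near *Sec11c*, *A1bg*, *Arrdc3*, *Snx7* and *Spry2*. Likeness was the root mean square difference of log2 CPM, which was 0.187 for *Sec11c*, 0.216 for *A1bg*, 0.298 for *Arrdc3*, 0.351 for *Snx7* and 0.369 for *Spry2*. The most alike, the *Sec11c* ACS, had 41.6 ± 7.62 CPM in Adult and 7.21 ± 1.02 in P10, and the *A1bg* ACS had 48.0 ± 9.05 and 7.75 ± 1.22. The log2 fold changes of the 5 ran from 2.1 to 2.64. They were picked by likeness to a site at 2.72, so that high values followed from the choice and are not a result. None of these ACS lies inside the gene it is listed with, and 4 of the 5 lie 19715 bp or more from it. Over all ACS, 22.1% lie inside a gene.

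Of the 31 ACS of the other transporters, 7 were called Up, 1 Down and 23 neither, beside 12.3% Up and 6.63% Down over all ACS. Their median log2 fold change was 0.07, against -0.01 over all ACS. At *Slc41a2*, 5 ACS had every Adult library above every P10 library and 1 had every Adult library below, and at the other 25 of the 31 ACS the groups overlapped. Over all ACS these shares were 13.8% and 10.9%, so that the counts of 5 and 1 among 31 are not read as a result about these genes. By position, 0 of the 5 ACS over a gene start were called and 3 of 14 inside a gene (2 Up, 1 Down). Upstream, 2 of 5 were called (both Up), and downstream 3 of 7 (all Up). The 7 downstream ACS were all listed with *Slc41a2*. The largest log2 fold change among them was 1.16, at *Cnnm1*. The number called Up fell to 3 without P10 library 2, and to 4 without Adult library 4 or P10 library 3.

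**Figure D4:**
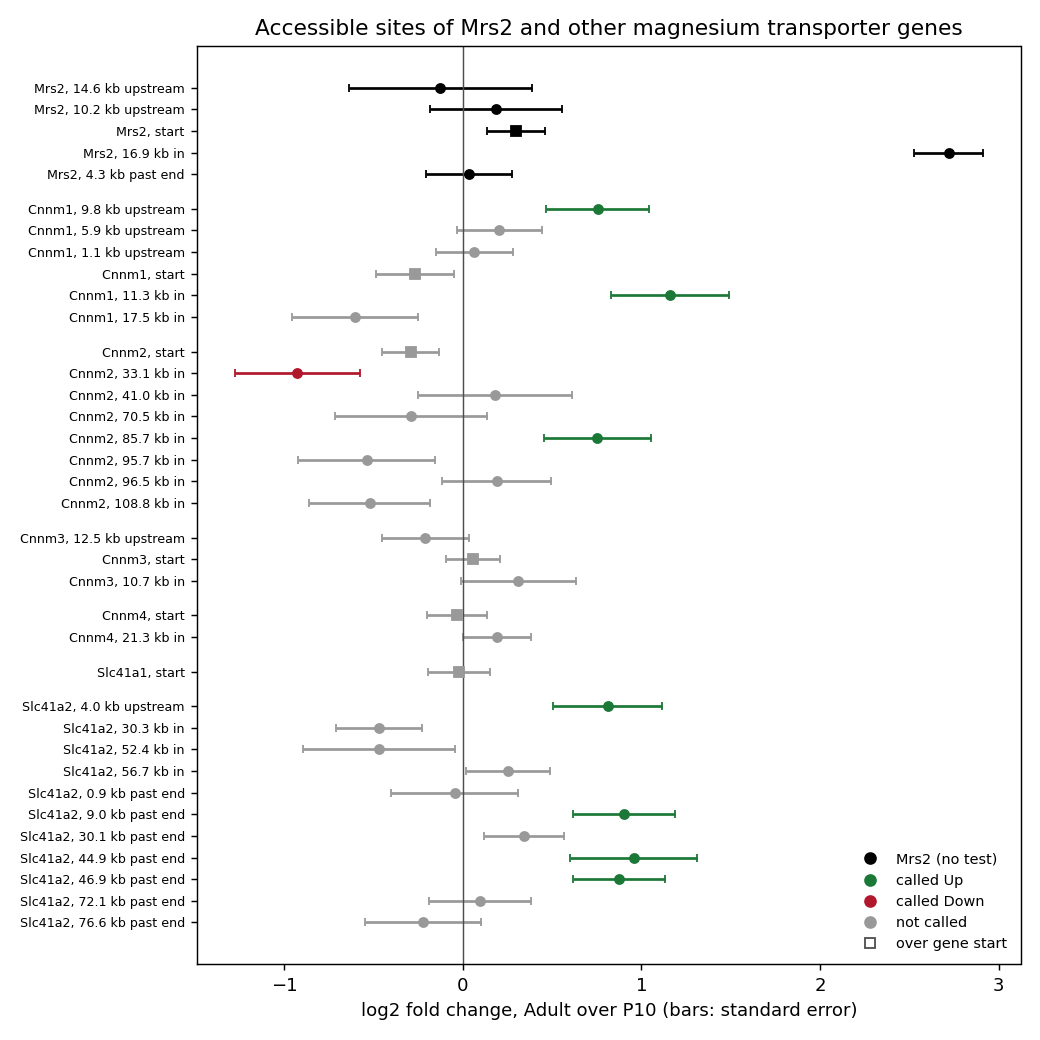
Log2 fold change of Adult over P10 (horizontal axis, bars are standard errors) for all 36 ACS, grouped by gene and ordered along it (vertical axis). Squares are ACS over a gene start. Green marks Up, red Down, grey neither, and black the *Mrs2* ACS, which carry no test. The *Mrs2* 3′ end ACS is at 2.72, the value that chose it, and the other genes with ACS reach 1.16. *Trpm6* and *Trpm7* had no member ACS to show.

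Of the other transporters, *Cnnm1*, *Cnnm2*, *Cnnm3*, *Cnnm4* and *Slc41a1* had a member ACS over the gene start, with integrations at both ages. The start of *Cnnm2*, whose product is needed for magnesium reabsorption in the kidney, had 54.4, 52.0 and 43.4 CPM in Adult and 68.3, 62.6 and 52.8 CPM in P10. Its log2 fold change of -0.29 had a standard error of 0.16 and an adjusted p of 0.306, with 2 adult libraries below all pups and 1 within their range. Scaling by column sums, cyclic loess or a minimum mean of 50 integrations brought this start past the limits, with adjusted p-values of 0.106, 0.144 and 0.0826. The start of *Cnnm3* had 60.5, 57.8 and 59.0 CPM in Adult and 59.0, 57.6 and 54.1 CPM in P10, a log2 fold change of 0.06 (SE 0.15, adjusted p 0.888). The start of *Cnnm4* had 45.0, 41.0 and 32.0 CPM in Adult and 40.6, 43.4 and 36.9 CPM in P10, a log2 fold change of -0.03 (SE 0.17, adjusted p 0.948). These values lay within the spread of the libraries, and neither sign held under every alternative. For *Slc41a1*, whose start ACS is its sole member, the levels were 36.0, 27.9 and 28.2 CPM in Adult and 29.7, 35.2 and 28.8 in P10. Its log2 fold change was -0.02 (SE 0.17, adjusted p 0.968), with a sign that also changed when single libraries were left out. The start of *Cnnm1* was the weakest, at 13.6, 13.2 and 9.67 CPM in Adult and 15.8, 12.1 and 16.3 in P10, a log2 fold change of -0.27 (SE 0.22, adjusted p 0.543).

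Per kilobase, the adult start levels fell in the order *Cnnm4* (52.4 ± 8.89 CPM), *Cnnm2* (51.5 ± 5.95), *Mrs2* (49.6 ± 7.19), *Cnnm3* (46.5 ± 1.06), *Slc41a1* (33.6 ± 5.01) and *Cnnm1* (13.2 ± 2.37). The ranges of the first 4 overlapped, and those of *Slc41a1* and *Cnnm1* lay below all of them. In P10 the order was *Cnnm2* (63.2 ± 8.09), *Cnnm4* (53.7 ± 4.37), *Cnnm3* (44.7 ± 2.0), *Mrs2* (40.4 ± 2.85), *Slc41a1* (34.1 ± 3.77) and *Cnnm1* (15.9 ± 2.50). Each neighbour in this order overlapped the next, except that *Cnnm3* lay below *Cnnm4* and *Cnnm1* below *Slc41a1*. Over all 8659 ACS that overlap a gene start, the median log2 fold change was -0.10.

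At *Cnnm1*, 2 ACS were Up. The ACS 11319 bp inside the gene (chr1:270642730-270643109) took 166, 85 and 39 integrations in Adult and 129, 35 and 78 in P10. Its means were 9.44 ± 5.09 and 4.21 ± 1.75 CPM, a log2 fold change of 1.16 (SE 0.33, adjusted p 0.0235). In CPM the groups overlapped, Adult library 4 was the highest of all, and without it the log2 fold change was 0.65 and the call was lost. The ACS that begins 9833 bp upstream (chr1:270621578-270621932) had 12.7, 7.30 and 6.83 CPM in Adult and 7.39, 4.56 and 3.96 in P10, a log2 fold change of 0.76 (SE 0.29, adjusted p 0.108). Here too the groups overlapped, and the call was lost without Adult library 4, P10 library 2 or P10 library 3 and with cyclic loess scaling (adjusted p 0.207). The 3 remaining *Cnnm1* ACS away from the start ran from -0.61 to 0.20 on the log2 scale and were not called.

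At *Cnnm2*, the called ACS went in opposite directions. The ACS 33103 bp inside the gene (chr1:273994404-273994930) was Down, with 1.90, 2.82 and 1.68 CPM in Adult against 5.35, 4.21 and 2.70 in P10, a log2 fold change of -0.93 (SE 0.35, adjusted p 0.105). The ACS 85731 bp inside the gene (chr1:274047032-274047523) was Up, with 11.5, 10.8 and 4.51 CPM in Adult against 7.20, 4.28 and 4.49 in P10, a log2 fold change of 0.75 (SE 0.30, adjusted p 0.128). In both the groups overlapped, and each call held in 2 of the 6 fits that left out 1 library. The first was lost without Adult library 4 or 6 or P10 library 1 or 2, and the second without Adult library 4 or 5 or P10 library 2 or 3 and with cyclic loess scaling (adjusted p 0.342). The other ACS of *Cnnm2* inside the gene were weak, with log2 fold changes from -0.54 to 0.19. *Cnnm4* and *Cnnm3* follow each other on chromosome 9, and their 5 ACS ran from -0.21 to 0.31 with none called. The upstream ACS listed with *Cnnm3* (chr9:42734550-42734924) lies within the span of *Cnnm4*, which ends at 42742596.

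*Slc41a2* held most of the Up calls, 4 of the 7, but also the most ACS of the other genes, 11 of the 31. Over all ACS, 12.3% were Up. The gene had no ACS over its start at 26651682 on chromosome 7. Its nearest ACS began 3998 bp upstream (chr7:26647684-26648022) and was Up, with 4.70, 4.87 and 5.03 CPM in Adult and 2.79, 2.07 and 3.38 in P10. The log2 fold change was 0.81 (SE 0.31, adjusted p 0.102), with all adults above all pups, and the call was lost without P10 library 2. The other 3 Up ACS lay past the gene end and are linked to *Slc41a2* only as the nearest listed gene.

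The ACS 9016 bp past the end (chr7:26743285-26743776) took 79, 56 and 50 integrations in Adult and 86, 47 and 53 in P10. Its means were 6.35 ± 0.85 and 3.38 ± 0.60 CPM, a log2 fold change of 0.90 (SE 0.28, adjusted p 0.0428). The ACS 46856 bp past the end (chr7:26781125-26781458) had 12.7, 10.9 and 9.80 CPM in Adult and 8.23, 5.21 and 4.70 in P10, a log2 fold change of 0.87 (SE 0.26, adjusted p 0.0281). In CPM, adults lay above pups without overlap at both, and both calls held whichever library was left out. The ACS 44915 bp past the end (chr7:26779184-26779424) had 2.89, 6.04 and 3.22 CPM in Adult and 2.65, 1.43 and 2.11 in P10, a log2 fold change of 0.96 (SE 0.36, adjusted p 0.0978). Adult library 5 was the highest, and the call was lost without it, without P10 library 2 or without P10 library 3. Inside the gene, the ACS 30288 bp from the start went the other way, with 8.68, 7.89 and 7.35 CPM in Adult and 13.9, 10.3 and 8.93 in P10. All adults lay below all pups there, but its log2 fold change of -0.47 was not called (adjusted p 0.267).

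**Figure D5:**
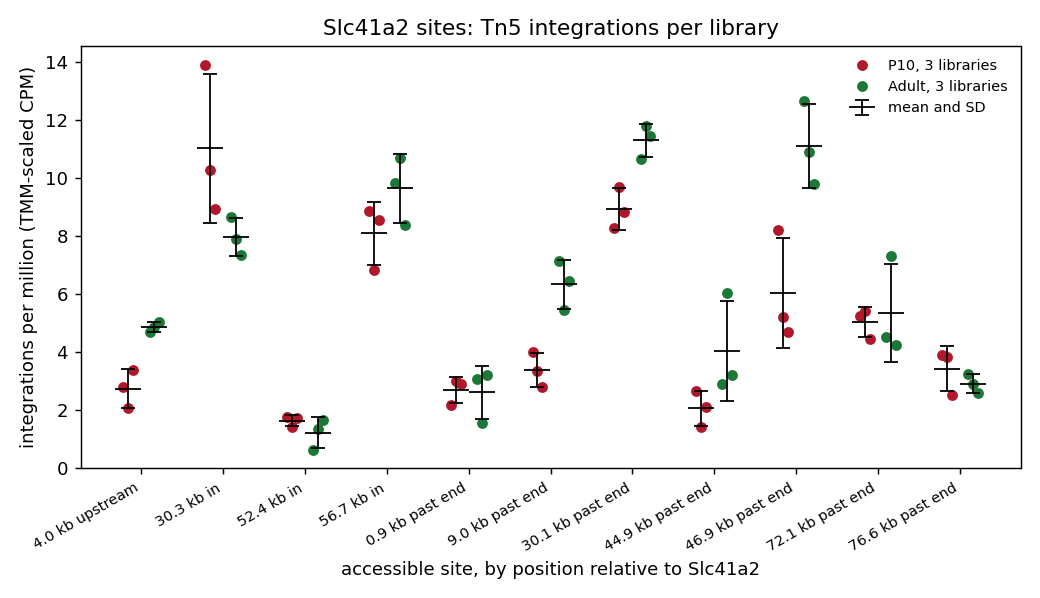
Tn5 integrations in CPM (vertical axis) at the 11 *Slc41a2* ACS, ordered along the gene (horizontal axis, distances in kilobases from the gene start, or past the gene end). Points are libraries (3 P10 in red, 3 Adult in green) and bars are mean and SD. Adults are above pups without overlap at 5 ACS, of which 4 were called Up, and below at 1.

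Summed over all ACS of a gene, 10.5% of 13834 genes were Up and 7.69% Down. *Mrs2* summed to 112 ± 14.9 CPM in Adult and 61.7 ± 5.79 in P10, a log2 fold change of 0.85 with a standard error of 0.12, and most of the difference came from the 3′ end ACS. Of the other genes, *Slc41a2* was Up, at 67.4 ± 3.73 against 55.1 ± 5.86 CPM, a log2 fold change of 0.29 (SE 0.12, adjusted p 0.151). This call held in 1 of 6 fits without a library, that without P10 library 1, and was lost with column sums. The remaining 5 were not called, with log2 fold changes of 0.18 for *Cnnm1*, -0.21 for *Cnnm2*, 0.04 for *Cnnm3*, 0.05 for *Cnnm4* and -0.03 for *Slc41a1*.

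*Trpm6* had no ACS. For *Trpm7*, 1 ACS without a symbol carried its gene identifier 679906 and lay over the gene start (chr3:125870866-125871914), outside the rule used for the members. It took 312, 273 and 164 integrations in Adult and 712, 447 and 626 in P10, or 28.2, 26.6 and 21.1 CPM against 33.1, 31.9 and 33.1. All adults lay below all pups, and the log2 fold change of -0.37 (SE 0.17, adjusted p 0.223) was not called. It was called Down in 2 of the 6 fits that left out 1 library, those without Adult library 4 or Adult library 5.

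The *Mrs2* and other member ACS resembled other ACS in size, with a median width of 380 bp against 373 bp over all. By position, 41.7% lay inside a gene against 22.1% of all ACS, and 16.7% over a start against 8.52%. Their median of mean integrations per library was 91.6, against 64.8 over all ACS.

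Other genes of magnesium handling were read from 4 lists. Of 11 further magnesium transport genes, 9 had 63 ACS, of which 7 were Up and 4 Down, with a median log2 fold change of -0.04. The ACS with the smallest p-value was that of *Slc41a3*, a carrier linked to the release of magnesium from mitochondria. It lies 2677 bp upstream of the gene (chr4:187049849-187050210) and had 23.7, 18.1 and 23.5 CPM in Adult and 4.93, 4.07 and 2.17 in P10. All adults were well above all pups, at a log2 fold change of 2.54 (SE 0.26, adjusted p 4.62e-07). *Slc41a3* had 11 ACS in all, of which 1 was Up and 2 Down. *Tusc3* and *Mmgt1*, linked to magnesium uptake, had 3 Up of 24 and 2 Up of 8.

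Of 15 regulators of magnesium balance, 13 had 112 ACS, of which 15 were Up and 5 Down (median 0.02). *Egfr*, the receptor of the magnesium-regulating hormone EGF, held 9 of these Up and 2 of the Down calls among 34 ACS. The ACS with the smallest p-value was near *Cldn16*, a tight-junction protein of paracellular magnesium transport, at 13.7 ± 2.23 against 3.62 ± 0.51 CPM, a log2 fold change of 1.93 (adjusted p 9.68e-06). Among 5 of 6 other TRPM channels, 3 of 26 ACS were Up and 5 Down (median -0.24). *Trpm3*, a calcium-permeable channel of β-cells, had 4 Down of 14, and *Trpm8*, the cold-sensitive channel, had 2 Up of 2. The *Trpm8* ACS with the smallest p-value had 19.7 ± 3.34 against 5.59 ± 1.14 CPM, a log2 fold change of 1.82 (adjusted p 7.82e-06).

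Of 16 genes for mitochondrial ion and Mg-ATP transport, the compartment of MRS2, 11 had 58 ACS, of which 10 were Up and 4 Down (median 0.02). *Mcu*, the pore of the mitochondrial calcium uniporter, had 3 Up of 5, *Slc25a24*, a carrier of Mg-ATP, 3 Up of 7, and *Vdac2*, an outer-membrane channel, 2 Up of 4. *Vdac3*, another outer-membrane channel, had 2 Down of 6. *Mcur1*, with the most ACS of the list, had 0 Up and 1 Down of 11, and *Vdac1* 0 Up and 1 Down of 6. The ACS with the smallest p-value lay inside *Micu2*, a regulator of the uniporter, at 11.1 ± 0.87 against 3.21 ± 0.67 CPM, a log2 fold change of 1.80 (adjusted p 4.11e-05). These counts are to be read against the 12.3% Up and 6.63% Down over all ACS, and no difference between a list and the rest was tested.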

How the data were processed

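ATAC-seq was read in dissociated islet cells of 3 adult rats and of 3 litters at P10. Per the labels and methods, the authors checked reads with FastQC 0.11.2, aligned them to Rn5 with BWA 0.7.13, removed mitochondrial and low-quality alignments (SAMtools 1.3), called peaks with MACS2 2.1.1 on the concatenated libraries of each age, joined them, and counted Tn5 integrations with pyDNase. They deposited raw counts of integrations per ACS and library. Removal of duplicates is not given in the sources used here, so p-values and errors cover the spread of these counts as deposited. The table also holds the authors' own fold changes, F values, p-values and FDR, which were not used. Its nearest gene and position were used, but it does not divide exons, introns and untranslated regions.

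Each of 101603 distinct ACS entered once (338 repeated listings were dropped, and 6899 entries carry no symbol). The quasi-likelihood test of edgeR 4.0.16 in R 4.3.3 was run with TMM library sizes, age as the only term, no filter on low counts and Benjamini-Hochberg adjustment over all ACS. Standard errors are the fold change divided by the root of F. Two-sided p-values were used, with calls at p under 0.05 and FDR under 0.2. Replicates of an age differed beyond counting error (chi-square per degree of freedom 3.35 to 7.81), and none was treated as a repeat. On simulated data with 200 of 101603 ACS changed by 1 on the log2 scale, 33.5% were called in the right direction, the median estimates were 0.98 and -1.02, and 18 unchanged ACS were called. In that setting, differences of that size were often missed. The data held far more called ACS, 12504 Up and 6738 Down, and the FDR limit depends on that number. The 33.5% is therefore not the share of such differences found in the data.

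The members, gene lists and tests were chosen with earlier results of these data known. All *Mrs2* ACS are named. Of every other gene, the ACS over the start and each called ACS are named, and of every list the ACS with the smallest p-value. The *Slc41a2* ACS inside the gene, the neighbouring genes and the counts of single genes in the lists were added after their values were seen. For likeness, 2 was added as prior count before the log2 of CPM. The alternatives were column sums, median-of-ratios size factors, cyclic loess with limma-trend, limma 3.58.1 voom, DESeq2 1.42.0, filters (minimum count 10 and total 15, or a mean of 50), FDR under 0.05, every listed entry, ACS within 100 kb for gene sums, and leaving out each library. Figures were drawn with matplotlib 3.10.9.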

Additional observations from a re-analysis of the deposited data

How the results depend on the processing

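The *Mrs2* 3′ end ACS kept a log2 fold change between 2.59 and 2.82 under every alternative run. No paired analysis was possible, because the Adult libraries came from single rats and the P10 libraries from litters, with no pairing between them given. Column sums moved the median of all ACS from -0.01 to -0.10 and the split of calls from 12504 Up and 6738 Down to 10447 and 10732. An FDR under 0.05 left 7177 Up and 1945 Down over all ACS, 3 Up and 0 Down of the 8 other transporters, 1 Down of the further magnesium transport genes, 3 Down of the regulators, and 5 Up and 2 Down of the mitochondrial list. The Down count of the 8 transporters, 1 as reported, was 3 with column sums, 3 with cyclic loess and 2 with a mean of at least 50. Under the same 3 settings the further transport genes had 7, 7 and 7 Down and the regulators 11, 9 and 8.

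Without 1 library in turn, the calls over all ACS ran from 7973 to 13232 Up and from 3285 to 7215 Down, lowest without P10 library 2. Those of the 8 transporters ran from 3 to 8 Up and 0 to 1 Down, of the further transport genes from 2 to 5 Down, of the regulators from 4 to 8 Down, and of the mitochondrial list from 5 to 11 Up and 2 to 5 Down. The mitochondrial Up count was 5 without P10 library 2 and 6 without Adult library 4 or P10 library 3. Its Down count was 2 without Adult library 4, Adult library 6 or P10 library 2, that of the further transport genes 2 without P10 library 2 or 3, and that of the regulators 8 without Adult library 5.

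The *Cnnm3* start turned to -0.038 with column sums and -0.030 with a mean of at least 50. The *Cnnm4* start ran from -0.14 to 0.094 without 1 library, above 0 without Adult library 6 or P10 library 2. That of *Slc41a1* ran from -0.15 to 0.052, above 0 without Adult library 5, Adult library 6 or P10 library 2. With column sums, the summed ACS gave -0.30 for *Cnnm2* (adjusted p 0.187, then called Down), -0.054 for *Cnnm3*, -0.036 for *Cnnm4* and 0.20 for *Slc41a2* (adjusted p 0.320, not called). Without 1 library, the sums ran from -0.012 to 0.081 for *Cnnm3*, below 0 without Adult library 6, from -0.11 to 0.065 for *Slc41a1*, above 0 without Adult library 5 or P10 library 2, and from 0.24 to 0.33 for *Slc41a2*. Apart from the scaling and the number of libraries, the cause was not tested. At *Mrs2* ACS with few integrations the depth is the limit, with 3 to 20 per library at the farthest.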
